A study of Mus musculus with 14 samples.

Results

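The genes described here are the mitochondrial carriers of the Slc25a family, taken as every row of the expression table whose gene symbol is Slc25a followed by a number. There were 44 such genes among 20193 measured genes, and all 44 were found in the RefSeq gene table. Affymetrix arrays were used to measure them in the HL-1 line of mouse atrial heart muscle cells which keep cardiomyocyte features in culture and were grown with norepinephrine. The cells were transfected with siAirn-001.1 (4 arrays), siAirn-001.2 (4 arrays) or siScramble (6 arrays), each at 10 nM, and no untransfected cells are among the samples. Airn is a long non-coding RNA transcribed antisense to Igf2r, and the labels do not say how the siAirn-001.1 and siAirn-001.2 reagents differ. The labels call the arrays biological replicates but do not say that they came from separate cultures, so p-values measure the spread between these arrays, which may be technical.

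Slc25a carriers sit almost all in the inner mitochondrial membrane, where each moves a particular metabolite between the cytosol and the matrix, usually by exchanging it for another. In heart muscle they bring ADP and phosphate in for ATP synthesis and take ATP out. They also carry the reducing equivalents of the malate-aspartate shuttle and the acylcarnitines burned as fuel.

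Values are log2 signals, on which a difference of 1 is a doubling. Each gene is read by its own probes, so levels of different genes, and their places against the median gene, compare only roughly. The array medians lay between 7.45 and 7.55. The siScramble mean was above the median gene's 7.49 for 30 of the members and below it for 14. Of 16 atrial cardiomyocyte markers, 15 were measured and 13 lay above that median, with array means of 11.5 to 11.6 for siAirn-001.1, 11.1 to 11.3 for siAirn-001.2 and 11.1 to 11.3 for siScramble. The macrophage list averaged 5.93 to 6.07 in siAirn-001.1 arrays, 5.97 to 6.15 in siAirn-001.2 arrays and 5.99 to 6.17 in siScramble arrays. The fibroblast list (4 of 9 above the median) averaged 6.57 to 7.31 over all arrays, the endothelial list (1 of 7) 6.55 to 6.76 and the smooth muscle list (3 of 4) 10.72 to 11.03. The endothelial changes ran from -0.39 to 0.71 with siAirn-001.1 (median 0.00, 4 of 7 above 0) and from -0.25 to 0.08 with siAirn-001.2 (median -0.00, 3 of 7 above 0). Kdr, the highest with siAirn-001.1, was the 1 of 7 called there, that is, past 0.05 after adjustment over all genes (limma adjusted p = 0.00205). Of all genes, 5.96% were called there in either direction. No macrophage or smooth muscle marker was called with either reagent in the limma fit. With siAirn-001.2, 2 of 4 smooth muscle markers had an unadjusted p under 0.05. The fibroblast changes ran from -0.91 to 0.06 with siAirn-001.1 and from -0.81 to 0.07 with siAirn-001.2, with 1 of 9 above 0 for each reagent and none called in the limma fit; 2 and 1 had an unadjusted p under 0.05. All 15 atrial markers were higher with siAirn-001.1 than with siScramble (median change 0.25) and 5 of them were called, against 3.43% of all genes called higher. With siAirn-001.2, 6 of the 15 were above 0 (median -0.04) and 1 was called, against 0.48% of all genes called higher. The marker lists were chosen with earlier results of these data known, so their counts of calls may reflect that choice. The part of these markers in the carrier results below was not tested. In RNA from whole cultures, fewer cells of a kind and less RNA per cell cannot be told apart. The Airn signal was 11.89, 11.82, 10.94 and 10.93 in the siAirn-001.1 arrays and 11.93, 11.67, 10.71 and 10.85 in the siAirn-001.2 arrays, against 12.16, 11.90, 11.78, 11.98, 12.06 and 12.03 in the siScramble arrays. Its log2 change for the mean of both reagents was -0.64 ± 0.19 (SE), with an exact two-sided permutation p of 0.0167 and a limma adjusted p of 0.0754, so the targeted RNA did not pass the threshold over all genes. Both p-values treat the siAirn arrays as independent, although same-numbered arrays of the 2 reagents deviated together, and may be too small.

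The 250 bases before the start of 3 carriers called in the mean of both reagents are shown first, so that their upstream sequence can be compared. They are from RefSeq on GRCm38.p6, 5′ to 3′ on the gene's strand, and capitals mark every match, on either strand, to the nuclear receptor half-site AGGTCA, the CCAAT box, the TATA box TATAAA, the E-box CACGTG, the ETS motif CCGGAAG or the GC box GGGCGG. The Slc25a10 window lies at chr11:120491587-120491836 on the plus strand, the Slc25a39 window at chr11:102407518-102407767 on the minus strand and the Slc25a24 window at chr3:109122899-109123148 on the plus strand.
Slc25a10: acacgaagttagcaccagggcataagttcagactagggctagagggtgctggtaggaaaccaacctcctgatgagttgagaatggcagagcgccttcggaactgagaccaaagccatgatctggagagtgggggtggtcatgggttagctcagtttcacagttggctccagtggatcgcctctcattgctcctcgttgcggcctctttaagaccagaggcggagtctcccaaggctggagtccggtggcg
Slc25a39: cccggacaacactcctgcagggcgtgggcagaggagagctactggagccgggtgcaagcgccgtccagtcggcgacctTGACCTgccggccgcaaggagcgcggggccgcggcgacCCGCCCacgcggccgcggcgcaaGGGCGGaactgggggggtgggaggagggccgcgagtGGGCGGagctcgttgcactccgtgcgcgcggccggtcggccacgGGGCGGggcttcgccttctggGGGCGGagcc
Slc25a24: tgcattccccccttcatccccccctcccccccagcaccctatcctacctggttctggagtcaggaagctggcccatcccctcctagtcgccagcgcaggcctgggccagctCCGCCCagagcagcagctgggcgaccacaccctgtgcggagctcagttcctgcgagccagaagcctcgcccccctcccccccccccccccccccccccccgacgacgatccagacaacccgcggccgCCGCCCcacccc

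The Slc25a10 window held none of the 6 motifs, the Slc25a24 window held GC boxes only, and the Slc25a39 window held GC boxes and a half-site. The motifs were chosen after the data were seen. Windows were given for 34 of the members, and not for Slc25a35, which was also called in the mean of both reagents. GGGCGG was found upstream of 24 of these 34 (70.6%), against 35.4% of 27025 genes with a window, CCAAT upstream of 17 (50%), against 37.5%, and CACGTG upstream of 7 (20.6%), against 6.86%. CCGGAAG was upstream of 5 (14.7%), against 7.83%, AGGTCA upstream of 4 (11.8%), against 15.8%, and TATAAA upstream of 2 (5.88%), against 14.3%. The 27025 genes were not limited to those measured here, so the shares compare unlike sets, and the part of this in the differences was not tested.

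The first comparison asks which carriers differed when the cells had received siAirn-001.1 rather than siScramble. Of the 44 carriers, 4 were called higher and none lower. These were Slc25a35, Slc25a43 and Slc25a45, carriers whose substrate is treated here as not settled, and Slc25a10, the dicarboxylate carrier, which exchanges malate or succinate for phosphate. A gene was called where the limma p, adjusted by Benjamini-Hochberg over all 20193 genes, was under 0.05. The called share was 9.09% of the carriers, against 5.96% of all genes in either direction and 3.43% called higher. The median log2 change of the carriers was 0.00 and 22 of 44 (50%) were above 0, against -0.01 and 46.7% of all genes. Slc25a24 was at -0.25 ± 0.07 (SE) and missed the threshold (limma adjusted p = 0.0535, and 0.0204 with array weights).

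Slc25a35 (transcript cluster 10377372, on chromosome 11) had signals of 8.85, 8.70, 8.56 and 8.75 in the siAirn-001.1 arrays and 8.33, 8.15, 7.41 and 7.56 in the siAirn-001.2 arrays, against 7.37, 7.61 and 7.86 as lowest, median and highest siScramble array. All siAirn-001.1 arrays lay above all siScramble arrays, while siAirn-001.2 arrays 1 and 2 lay above them and arrays 3 and 4 among them. The log2 change with siAirn-001.1 was 1.09 ± 0.15 (SE; 2.13-fold, limma adjusted p = 0.000471), the largest of any carrier in the 4 contrasts. With siAirn-001.2 it was 0.24 ± 0.15 and did not pass (limma adjusted p = 0.646). The Airn signal was 11.67 to 11.93 in arrays 1 and 2 and 10.71 to 10.94 in arrays 3 and 4 of both reagents. Its part in the Slc25a35 differences was not tested.

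Slc25a10 (transcript cluster 10383395, chromosome 11) had 10.00, 10.04, 9.59 and 9.57 in siAirn-001.1 cells and 9.76, 9.88, 9.99 and 9.97 in siAirn-001.2 cells, against 9.21, 9.28 and 9.69 as lowest, median and highest siScramble array. All siAirn-001.2 arrays were above all siScramble arrays, whereas siAirn-001.1 arrays 3 and 4 were below the highest siScramble array. Its log2 change was 0.47 ± 0.11 (SE) with siAirn-001.1 (limma adjusted p = 0.0174) and 0.57 ± 0.11 with siAirn-001.2 (limma adjusted p = 0.0216). The siAirn-001.1 call was lost without siAirn-001.1 array 1 or 2, at limma adjusted p up to 0.0682.

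Slc25a43 (transcript cluster 10599207, chromosome X, next to the ADP/ATP carrier gene Slc25a5) had 10.06, 10.07, 10.20 and 10.28 in siAirn-001.1 cells and 10.01, 9.90, 9.54 and 9.56 in siAirn-001.2 cells, against 9.74, 9.77 and 9.89 as lowest, median and highest siScramble array. Every siAirn-001.1 array was above every siScramble array, and the siAirn-001.2 arrays lay on both sides of the siScramble range. The log2 change was 0.36 ± 0.09 (SE; limma adjusted p = 0.0243) for siAirn-001.1 and -0.04 ± 0.09 for siAirn-001.2 (limma adjusted p = 0.979). The call was lost without siAirn-001.1 array 3 or 4 or siScramble array 2 or 4, at limma adjusted p up to 0.0784. Slc25a5 itself was at -0.05 ± 0.06 with siAirn-001.1.

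Slc25a45 (transcript cluster 10460696, chromosome 19) had 7.73, 8.001, 7.77 and 7.73 in siAirn-001.1 cells and 7.69, 7.95, 7.52 and 7.26 in siAirn-001.2 cells, against 7.18, 7.34 and 7.67 as lowest, median and highest siScramble array. The siAirn-001.1 and siScramble arrays did not overlap, by a narrow gap to siScramble array 6. The log2 change with siAirn-001.1 was 0.43 ± 0.12 (SE; limma adjusted p = 0.0375), and it was 0.23 ± 0.12 with siAirn-001.2 (limma adjusted p = 0.492). This call was lost without any of the 4 siAirn-001.1 arrays or any of siScramble arrays 1 to 5, at limma adjusted p up to 0.127.

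**Figure D1:**
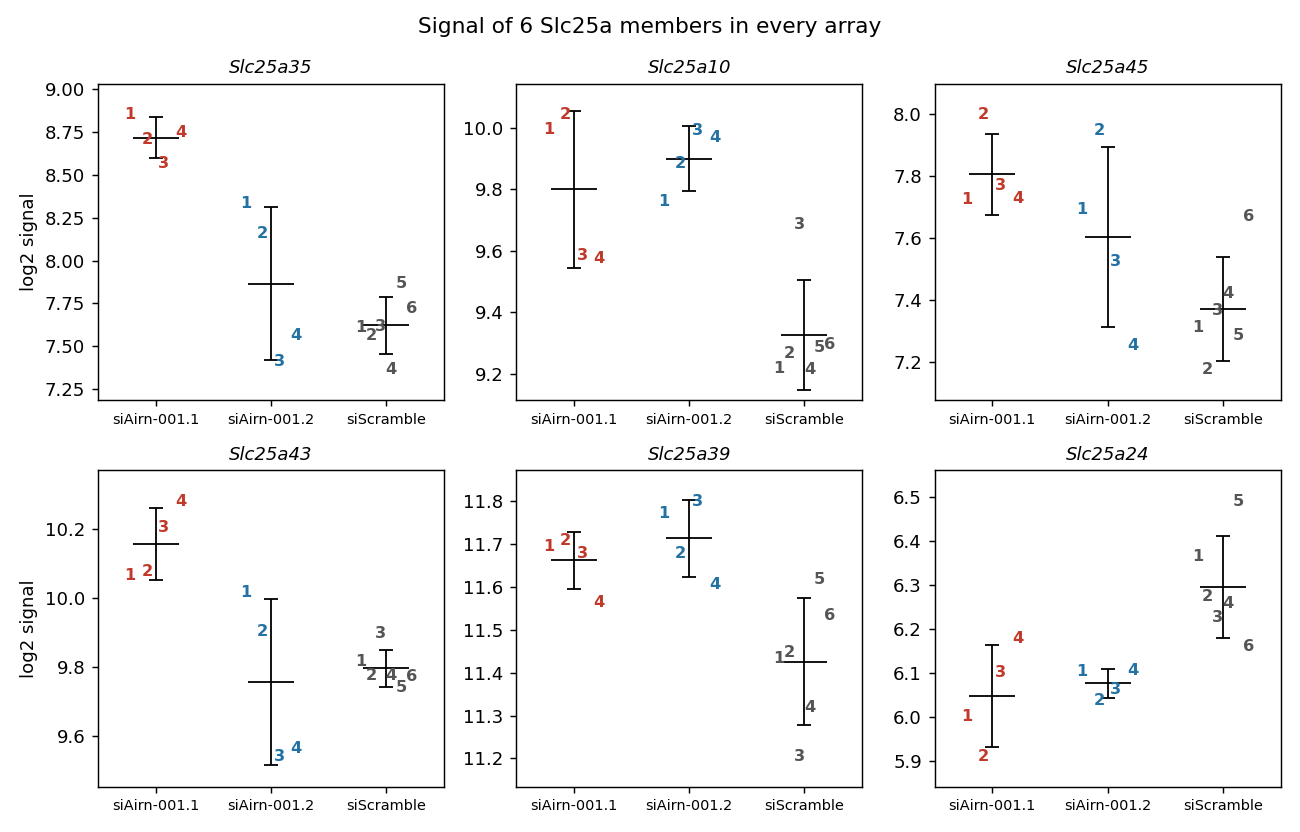
Log2 signal of 6 carriers in each array, with panels scaled separately. Digits are arrays by replicate number, the long line is the group mean and the bars are ± 1 SD. The siAirn-001.1 arrays of Slc25a35 all lie between 8.56 and 8.85, above the siScramble arrays, which end at 7.86.

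Counted by array values that did not overlap between groups, 7 of 44 carriers (15.9%) separated siAirn-001.1 from siScramble, against 7.98% of all genes. Besides Slc25a35, Slc25a43 and Slc25a45 they included the citrate carrier Slc25a1, the aspartate/glutamate carrier Slc25a12 and the coenzyme A carrier Slc25a42. Their log2 changes were 0.23 ± 0.07, 0.16 ± 0.06 and 0.28 ± 0.10 (SE), at limma adjusted p of 0.0634, 0.133 and 0.129.

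With siAirn-001.2, Slc25a10 was the 1 carrier called of 44 (2.27%), against 0.951% of all genes in either direction and 0.48% called higher. Its call was lost without siAirn-001.2 array 3 or 4 or siScramble array 1, 2 or 4, at limma adjusted p up to 0.0851. The carriers' median log2 change was 0.07 and 28 of 44 (63.6%) were above 0, against -0.00 and 48.9% of all genes. Array values did not overlap with siScramble for 2 carriers (4.55%), Slc25a10 and the ATP-Mg/phosphate carrier Slc25a24, against 3.74% of all genes. The 2 reagents share the 6 siScramble arrays, so their changes are not independent of each other.

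For the mean of both reagents against siScramble, 3 carriers rose and 1 fell. Slc25a35, Slc25a10 and Slc25a39, a carrier that brings glutathione into mitochondria, were higher, and Slc25a24, a calcium-regulated carrier that exchanges ATP-Mg for phosphate, was lower. The 4 calls are 9.09% of the carriers, against 4.13% of all genes in either direction, 2.15% called higher and 1.97% called lower. The carriers' median was 0.04 with 29 of 44 (65.9%) above 0, against -0.00 and 48.1% of all genes. No carrier had all 8 siAirn arrays on 1 side of all 6 siScramble arrays, which 1.63% of all genes did.

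The mean change of Slc25a35 was 0.67 ± 0.12 (SE; limma adjusted p = 0.0064) and that of Slc25a10 was 0.52 ± 0.09 (limma adjusted p = 0.00428), with exact two-sided permutation p of 0.0196 and 0.00167. The Slc25a35 call was lost when the siAirn arrays were fitted as 1 group (limma adjusted p = 0.085). Both were called with any 1 array left out.

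Slc25a39 (transcript cluster 10391669, chromosome 11) had 11.69, 11.71, 11.68 and 11.56 in siAirn-001.1 cells and 11.77, 11.68, 11.80 and 11.60 in siAirn-001.2 cells, against 11.21, 11.44 and 11.62 as lowest, median and highest siScramble array. The siAirn arrays were on the high side and the lowest 2 of them overlapped siScramble array 5. The log2 change was 0.26 ± 0.07 (SE; limma adjusted p = 0.0314). The call was lost in 8 of 14 fits that left out 1 array (siScramble 1, 2, 3 or 4, siAirn-001.1 array 1 or 2, siAirn-001.2 array 1 or 3), at limma adjusted p up to 0.0962. Its paralog Slc25a40 was at -0.06 ± 0.12.

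Slc25a24 (transcript cluster 10495405, chromosome 3) had 6.00, 5.91, 6.10 and 6.18 in siAirn-001.1 cells and 6.10, 6.04, 6.06 and 6.11 in siAirn-001.2 cells, against 6.16, 6.27 and 6.49 as lowest, median and highest siScramble array. The siAirn arrays were on the low side, and siAirn-001.1 array 4 overlapped siScramble array 6. The log2 change was -0.23 ± 0.06 (SE; limma adjusted p = 0.0379), on a signal below the median gene's. Leaving out siScramble array 6, or array 3 or 4 of siAirn-001.1, kept the call, and leaving out each of the other 11 arrays lost it, at limma adjusted p up to 0.0987. It was also lost when arrays were centred on their medians or quantile normalized, at limma adjusted p of 0.0791 and 0.11.

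In the authors' deposited table, which compares all siAirn arrays with siScramble, 1.45% of all genes had an adjusted p under 0.05, and Slc25a10 was the 1 carrier among them, with an adjusted p of 0.0166. The authors' deposited table gives adjusted p of 0.173 for Slc25a35, 0.0664 for Slc25a39 and 0.0703 for Slc25a24.

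Between the reagents, Slc25a35 was the 1 carrier called (2.27% of 44), lower with siAirn-001.2 than with siAirn-001.1 by a log2 change of -0.85 ± 0.16 (SE; limma adjusted p = 0.0227). Over all genes 1.01% were called in either direction and 0.674% lower. The call was lost without array 3 or 4 of siAirn-001.2 or array 4 of siAirn-001.1, at limma adjusted p up to 0.0941. Slc25a43 was at -0.40 ± 0.10 and missed the threshold (limma adjusted p = 0.0605). Array values did not overlap for 3 carriers (6.82%), Slc25a35, Slc25a43 and the ornithine carrier paralog Slc25a2, against 5.53% of all genes. The carriers' median difference was 0.02 with 24 of 44 (54.5%) above 0, against 0.01 and 52.9% of all genes.

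**Figure D2:**
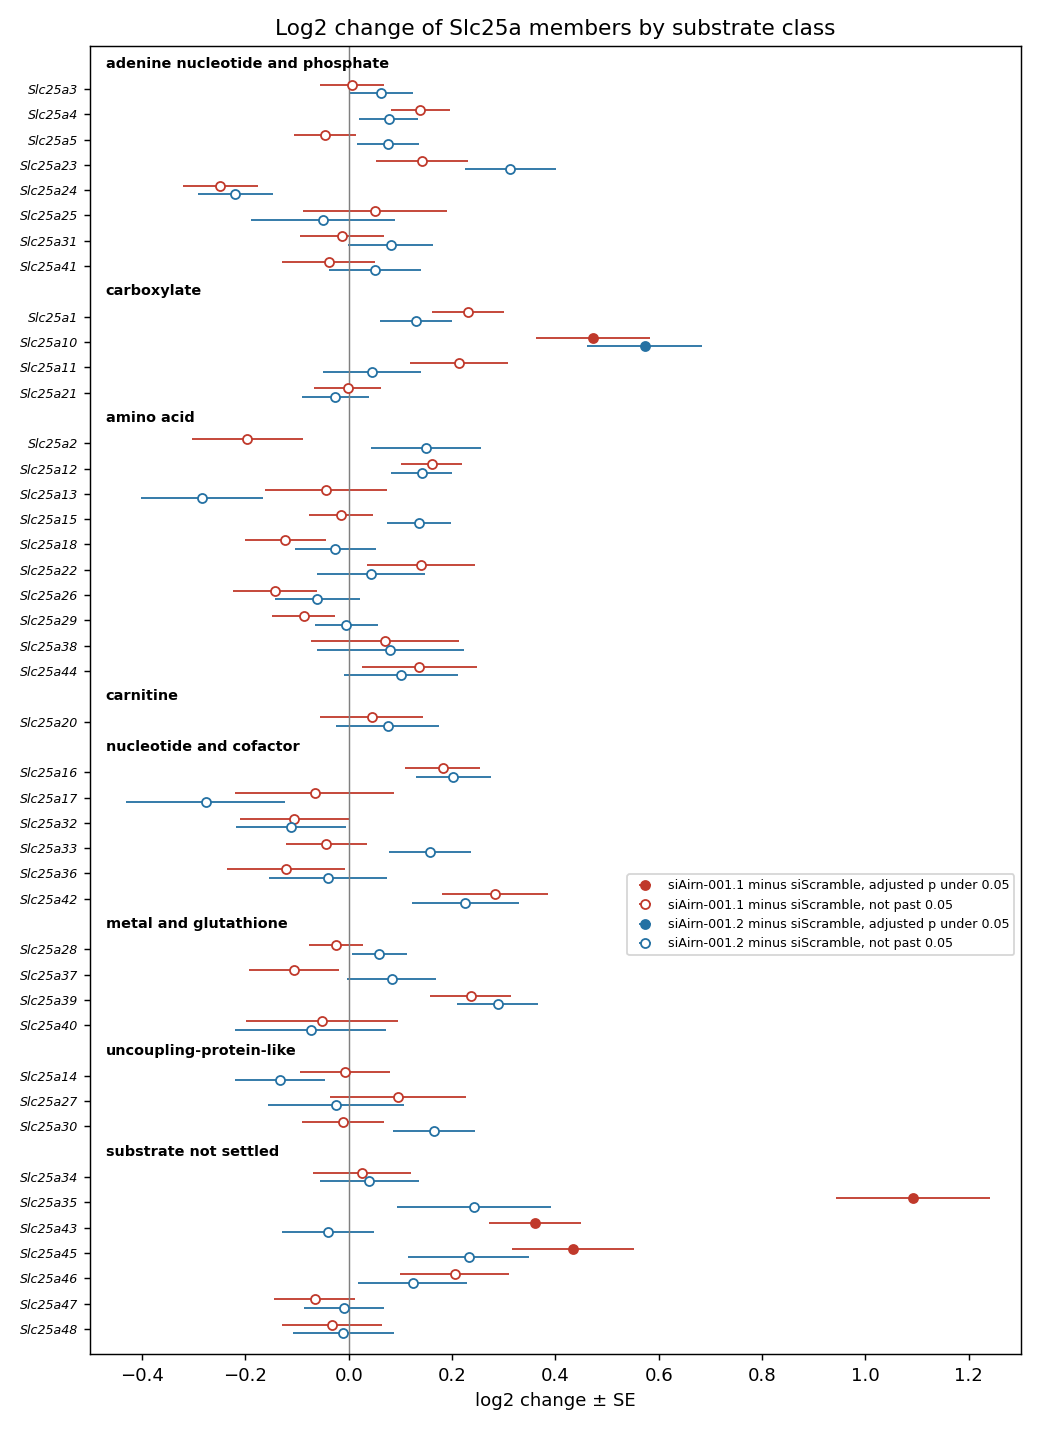
Log2 change ± SE of the carriers (all but 1 of the 44), grouped by substrate, for siAirn-001.1 minus siScramble and siAirn-001.2 minus siScramble. Filled points passed the threshold: 4 carriers for siAirn-001.1, with Slc25a35 farthest out at 1.09, and Slc25a10 alone for siAirn-001.2.

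The carriers of ATP synthesis gave no call in any contrast. Slc25a4, the ADP/ATP carrier of heart and muscle, had 13.13, 13.15, 13.04 and 13.13 in siAirn-001.1 cells and 13.02, 13.10, 13.05 and 13.04 in siAirn-001.2 cells, against 12.89, 12.96 and 13.07 as lowest, median and highest siScramble array. The groups overlapped, and the mean change was 0.11 ± 0.05 (SE; limma adjusted p = 0.265). Slc25a5, the ADP/ATP carrier of dividing cells, had 13.04, 13.04, 12.91 and 12.93 in siAirn-001.1 cells and 13.08, 13.01, 13.13 and 13.19 in siAirn-001.2 cells, against 12.94, 13.03 and 13.12 for siScramble. Slc25a3, the phosphate and copper carrier, had 12.79, 12.80, 12.89 and 12.98 in siAirn-001.1 cells and 12.85, 12.83, 12.98 and 13.02 in siAirn-001.2 cells, against 12.81, 12.85 and 12.92 for siScramble. Both overlapped in all groups, with mean changes of 0.01 ± 0.05 and 0.04 ± 0.05. The other members of this class ranged from -0.23 to 0.23 in the mean contrast. Slc25a24 was the 1 call among the 8 carriers of the class, against 4.13% of all genes.

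The malate-aspartate shuttle carriers were not called either. Slc25a11, the oxoglutarate/malate carrier, had 12.01, 11.79, 11.78 and 11.85 in siAirn-001.1 cells and 11.85, 11.78, 11.58 and 11.55 in siAirn-001.2 cells, against 11.45, 11.63 and 11.90 as lowest, median and highest siScramble array. Slc25a12, a calcium-regulated aspartate/glutamate carrier, had 11.52, 11.41, 11.48 and 11.53 in siAirn-001.1 cells and 11.52, 11.36, 11.44 and 11.55 in siAirn-001.2 cells, against 11.27, 11.32 and 11.39 for siScramble. Slc25a11 overlapped between all groups, with a mean change of 0.13 ± 0.08 (SE; limma adjusted p = 0.516). For Slc25a12 the siAirn-001.1 arrays were all above siScramble and 1 siAirn-001.2 array was not; its mean change was 0.15 ± 0.05 (SE; limma adjusted p = 0.101, and 0.032 with quantile normalization). Slc25a13, the other aspartate/glutamate carrier, had 6.83, 6.88, 7.27 and 7.21 in siAirn-001.1 cells and 6.84, 6.86, 6.68 and 6.86 in siAirn-001.2 cells, against 6.77, 7.16 and 7.32 for siScramble. All siAirn-001.2 arrays of Slc25a13 lay within the siScramble range except array 3, which was below it. Its siAirn-001.2 change was -0.28 ± 0.12 (limma adjusted p = 0.34). It passed at -0.43 (limma adjusted p = 0.044) without siScramble arrays 5 and 6, an alternative chosen after the data were seen.

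Slc25a20, which exchanges carnitine for acylcarnitine in fatty acid oxidation, had 9.80, 9.71, 9.20 and 9.36 in siAirn-001.1 cells and 9.53, 9.64, 9.46 and 9.55 in siAirn-001.2 cells, against 9.36, 9.49 and 9.57 as lowest, median and highest siScramble array. The siAirn-001.1 arrays lay on both sides of the siScramble range, and the mean change was 0.06 ± 0.08 (SE; limma adjusted p = 0.882).

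Of the remaining classes, the carboxylate carriers gave 1 call of 4 in the mean contrast, against 4.13% of all genes. It was Slc25a10, and the class ranged from -0.01 to 0.52. None of the 10 amino acid carriers was called in a contrast, with mean changes of -0.16 to 0.15, and none of the 7 nucleotide and cofactor carriers, from -0.17 to 0.25. None of the 3 uncoupling-protein-like members was called (-0.07 to 0.08). Slc25a39 was the 1 call among 4 metal and glutathione carriers (-0.06 to 0.26), against 4.13% of all genes. The 7 members of unsettled substrate gave 1 call in the mean contrast, Slc25a35 (-0.04 to 0.67), against 4.13% of all genes. They gave 3 calls with siAirn-001.1, all higher, against 5.96% of all genes in either direction and 3.43% called higher. With siAirn-001.2 they gave 0 calls in the limma fit, and none had an unadjusted p under 0.05. The classes were chosen with earlier results of these data known, so counts by class may reflect that choice.

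**Figure D3:**
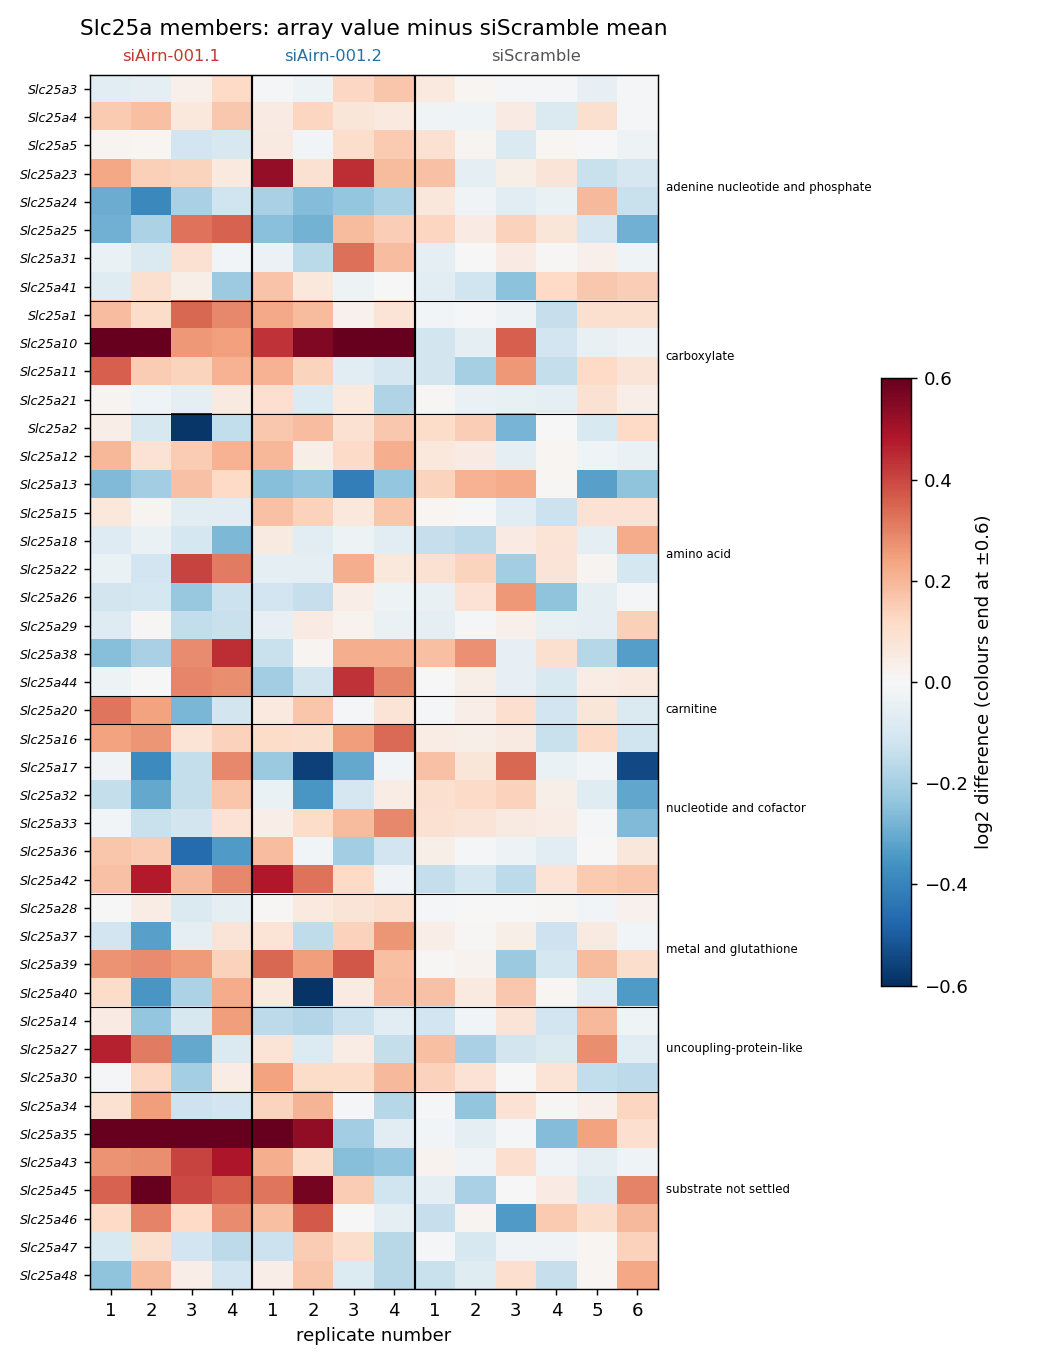
Log2 signal of the carriers (all but 1 of the 44; rows, by substrate class) in each array (columns, by group and replicate number) minus the gene's siScramble mean; red is higher and blue is lower. Slc25a10 is red in all 8 siAirn columns, and Slc25a35 in the 4 siAirn-001.1 columns and siAirn-001.2 arrays 1 and 2.

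The replicate numbers 1 to 4 are carried by both reagents, and among the 8 siAirn arrays 2 of 44 carriers (4.55%) differed by number in limma's F test with the reagent as the other term, against 2.4% of all genes. Slc25a25, a calcium-regulated ATP-Mg/phosphate carrier, had 7.47, 7.56, 8.08 and 8.11 in siAirn-001.1 cells and 7.50, 7.47, 7.94 and 7.90 in siAirn-001.2 cells in arrays 1 to 4, against 7.46, 7.81 and 7.89 as lowest, median and highest siScramble array. Arrays 3 and 4 were the high ones with each reagent (F = 18.5, limma adjusted p = 0.0383). Slc25a17, which carries coenzyme A, FAD and NAD in peroxisomes, had 8.65, 8.29, 8.52 and 8.95 in siAirn-001.1 cells and 8.44, 8.11, 8.36 and 8.65 in siAirn-001.2 cells, against 8.13, 8.70 and 9.01 for siScramble. Array 4 was highest and array 2 lowest with each reagent (F = 15.5, limma adjusted p = 0.0496).

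Neither gene was called in a contrast between groups, and both calls by number were lost when any 1 of the 8 arrays was left out, at limma adjusted p up to 0.174 for Slc25a25 and 0.238 for Slc25a17. The Airn signal was 10.71 to 10.94 in arrays 3 and 4 and 11.67 to 11.93 in arrays 1 and 2 of both reagents; its part in these differences was not tested. What the numbers stand for is not stated in the labels.

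**Figure D4:**
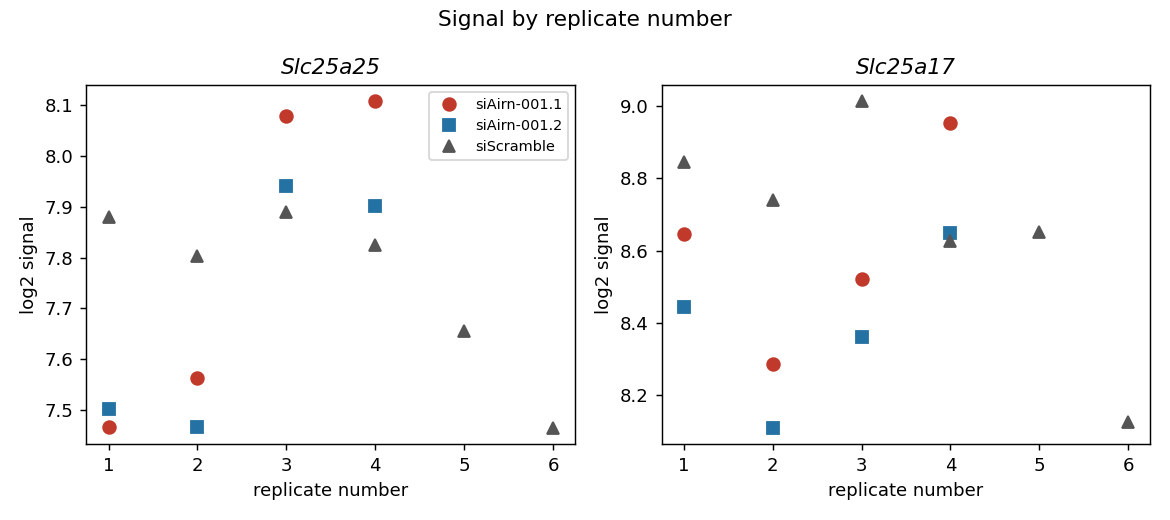
Log2 signal of Slc25a25 and Slc25a17 by replicate number, 1 point per array. For Slc25a25, arrays 3 and 4 of both reagents lie between 7.90 and 8.11 and arrays 1 and 2 between 7.47 and 7.56.

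The nearest protein-coding genes on either side were looked up for the carriers called in a contrast or by replicate number. None that was measured was called in any of the 4 contrasts, against 4.13% of all genes in the mean contrast. These genes are few, so the lack of a call does not set them apart from other genes. Mrpl12, a mitochondrial ribosomal protein gene next to Slc25a10, had a mean change of 0.12 ± 0.05 (SE; limma adjusted p = 0.222).

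Other proteins of the carrier family carry other symbols in the table. Of 5 homologs, 2 were called higher in the mean contrast, against 2.15% of all genes called higher. Ucp2, an uncoupling-protein homolog, rose by 0.40 ± 0.06 (SE; limma adjusted p = 0.00137), and Mtch1, a carrier homolog of the outer membrane, by 0.23 ± 0.05 (limma adjusted p = 0.0222). Ucp2 passed with siAirn-001.1 (limma adjusted p = 0.00617) and with siAirn-001.2 (0.0124). Mtch1 passed with siAirn-001.2 (limma adjusted p = 0.0456) but not with siAirn-001.1 (0.13). Ucp1, Ucp3 and Mtch2 gave no call. Of 3 rows under older names, none was called: Mcart1 (now Slc25a51, an NAD carrier) was at -0.02 ± 0.05, Mcart6 (now Slc25a53) at -0.04 ± 0.08 and 4930443G12Rik (now Slc25a54) at -0.05 ± 0.06.

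Of 19 other mitochondrial transport genes, 2 rose and 1 fell in the mean contrast, against 4.13% of all genes called: Brp44 (now Mpc2, of the pyruvate carrier) by 0.36 ± 0.07 (SE; limma adjusted p = 0.0123), Tspo by 0.41 ± 0.10 (limma adjusted p = 0.0316), and Sfxn1, a serine transporter, at -0.34 ± 0.05 (limma adjusted p = 0.000945). Of 22 enzymes that work with these carriers, 4 rose and 1 fell in the mean contrast, against the same 4.13% of all genes. Shmt2, which makes glycine from serine in mitochondria, changed by 0.71 ± 0.08 (limma adjusted p = 0.000182), Mthfd2, of mitochondrial folate metabolism, by 0.36 ± 0.07 (limma adjusted p = 0.0102), and Pank1, which starts coenzyme A synthesis, by -0.27 ± 0.07 (limma adjusted p = 0.0293). Of 15 regulators of mitochondrial genes, 1 was called higher and 1 lower, again against 4.13% of all genes in either direction. Ppara, a fatty acid receptor, rose by 0.40 ± 0.08 (limma adjusted p = 0.0138) and Myc was at -0.58 ± 0.15 (limma adjusted p = 0.0385). None of 12 genes of carrier import into mitochondria was called in the limma fit, and 1 of them had an unadjusted p under 0.05. The lists were chosen with earlier results of these data known, so their counts of calls may reflect that choice.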

How the data were processed

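The authors deposited log2 expression values for each of 14 arrays, with RMA and limma listed among the tools of the submitters' processing notes but no version. Neither the array model nor its annotation build is given in the sources used here. Per the file headers, the deposited table adds the authors' comparison of siAirn with siScramble, with a p-value and its adjusted form. Values were used as deposited, without a filter; RMA equalises array distributions and so hides any shift common to most genes. The 3 group means were fitted with limma 3.58.1 in R 4.3.3 on all 20193 genes (11 residual and 5.31 prior degrees of freedom), with 2-sided tests, Benjamini-Hochberg adjustment over all genes and a threshold of 0.05, and the fit was tested on simulated data. Exact permutation tests gave at least 0.00476 for 4 against 6 arrays. For the mean of both reagents, the permutations and the limma fit treated all siAirn arrays as independent, so their p-values may be too small. The number of arrays limits the precision; the median SE was 0.0876 for 1 reagent and 0.0733 for the mean.

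Carriers were named if called in any contrast or by replicate number; 7 heart carriers were given whatever their values, and list genes outside the family only if called, at most 3 per list. Values of 1 carrier, which is in all counts, are not reported here. Members, classes and lists were chosen with earlier results of these data known. Same-numbered arrays of the 2 reagents deviated together from their group means (correlations across genes of 0.318 to 0.534), so the numbers pair the reagents' arrays. With siScramble the same correlations ran from -0.429 to 0.234, and no pairing was used outside the replicate block. Alternatives were a left-out array, centring, quantile normalization, a filter on dim genes, a replicate block, array weights, a trended robust prior, 2-group fits and a second deposited table. Scanner-level background correction and slides were not used here. Gene names and promoters are from RefSeq (GRCm38.p6).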

Additional observations from a re-analysis of the deposited data

Results flagged for a closer look

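Each of 15 named carriers was screened in its 3 groups, 45 groups in all, for an array far from the others by Dixon's test at the 95% level, which chance passes in about 5% of groups. Slc25a10 in siScramble array 3 was 9.69, against 9.21 to 9.30 in the other siScramble arrays. Slc25a45 in siAirn-001.1 array 2 was 8.001, against 7.73 to 7.77 in the other siAirn-001.1 arrays. Slc25a13 in siAirn-001.2 array 3 was 6.68, against 6.84 to 6.86 in the other siAirn-001.2 arrays. The effect of the reagents on Slc25a35 differed, at -0.85 for siAirn-001.2 minus siAirn-001.1 (limma adjusted p = 0.0227).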

How the results depend on the processing

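The counts of called carriers were 4 for siAirn-001.1, 1 for siAirn-001.2, 4 for the mean of both, 1 between the reagents and 2 by replicate number. No named carrier changed direction where it was called. With 1 array left out the counts ran from 2 to 5 for siAirn-001.1, 0 to 2 for siAirn-001.2, 2 to 5 for the mean, 0 to 2 between the reagents and 0 to 1 by replicate number. The siAirn-001.1 count was 2 without its array 1, 2 or 3 or siScramble array 2 or 4, and the mean count was 2 without siScramble array 1, 2, 3 or 4, siAirn-001.1 array 1 or 2 or siAirn-001.2 array 1. With array weights the counts were 8 for siAirn-001.1, 3 for siAirn-001.2, 9 for the mean and 2 between the reagents. Leaving out the dimmest 25% of genes gave 7 for siAirn-001.1. Without siScramble arrays 5 and 6, chosen after the data were seen, siAirn-001.2 gave 3. By replicate number the trended robust prior gave 1 and the second deposited table gave 1. The cause of these shifts was not tested. Counts under alternative settings, here and below, are given without the share of all genes called under the same setting. They therefore do not compare the carriers with other genes.

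With the replicate number as a block, siAirn-001.2 gave 2 calls, siAirn-001.1 gave 4, the mean gave 5 and the contrast between the reagents, which the numbers pair, kept its 1 call. Under the block Slc25a10 and Slc25a43 lost their siAirn-001.1 calls (limma adjusted p of 0.0508 and 0.0745), Slc25a24 lost its mean call (0.0545), and Slc25a39 passed with each reagent (0.0225 and 0.0263). Numbers 5 and 6 occur only in siScramble, so the block takes those arrays out of the comparison. It also matches the other siScramble arrays to siAirn arrays by number. Leaving out siScramble arrays 5 and 6 gave the same log2 changes, for example -0.22 for Slc25a24 (mean) and 0.34 for Slc25a43 (siAirn-001.1). The lost and gained calls therefore do not show the effect of pairing alone.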
